A study of Mus musculus with 6 samples.

Results

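The values of 9 genes of vesicle transport across brain endothelium are given here for purified cerebellar endothelial cells with and without Frizzled4. They are the receptors Tfrc, Insr, Lrp1, Lrp8, Ager, Lepr, Scarb1 and Fcgrt, which can carry cargo into or across brain endothelial cells, and Mfsd2a, a lipid carrier that holds transcytosis down. The members were all probe sets that the platform annotation assigns to 1 of these 9 symbols alone, which gave 25 probe sets for 9 of the 18193 genes on the array. A probe set is a group of short oligonucleotides that reads 1 stretch of a transcript, and of the 25, 3 are Affymetrix control probe sets for Tfrc. The cells were captured with beads coated with antibody to PECAM, an endothelial surface protein, taken from mouse cerebellum on postnatal day 16. One genotype was Fz4-/-, lacking Frizzled4 (the product of Fzd4), and the other was wild type, with 3 preparations and 3 Affymetrix 3' expression arrays each. Both genotypes were of mixed gender on a C57Bl6/129 mixed background. Neither the allele nor the number or pooling of animals per preparation is stated in the labels, and the p-values therefore cover the spread among these 6 samples, which may be technical.

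Brain endothelial cells form few vesicles, and large molecules that cross them mostly do so by binding a receptor, entering a clathrin-coated or caveolar vesicle and being sorted in endosomes. The transferrin receptor imports iron-loaded transferrin and is a common route for drugs aimed at the brain. Mfsd2a moves lysophosphatidylcholine with docosahexaenoic acid into the brain and is known to limit caveolar transcytosis through the membrane's lipid composition. Frizzled4 carries the Norrin signal to beta-catenin, a pathway that maintains the barrier state of retinal and cerebellar vessels.

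All levels below are log2 RMA expression, a scale on which 1 unit is a 2-fold change, and all differences are Fz4-null minus wild type. Array medians lay between 5.52 and 5.58 and lower quartiles between 3.46 and 3.64. Fzd4, the targeted gene, read 3.04, 4.03 and 4.0 on null replicates 1 to 3 and 10.80, 10.20 and 10.88 on wild-type replicates 1 to 3, although whether its probe set lies in the deleted stretch is unknown here. The endothelial label was met by its markers: the 12 endothelial marker genes averaged 11.62 to 11.74 on the null arrays and 11.43 to 11.53 on the wild-type arrays, so they were slightly higher on every null array. The choroid plexus epithelium list (9 of 10 markers measured) averaged 5.31 to 5.92 on the null arrays and 6.30 to 8.55 on the wild-type arrays, with the highest value on wild-type replicate 3. Null replicate 1 stood apart in the markers of fibroblasts, microglia and macrophages, astrocytes, and pericytes and smooth muscle, which are given beside the genes they move with. The leukocyte and platelet list was also lowest there (4.47 against 5.84 to 6.36 on the other arrays), as was the granule neuron list (5.02 against 5.51 to 6.58). So were the choroid plexus list (5.31) and the oligodendrocyte list (4.63 against 4.83 to 5.1), while the Purkinje cell and red cell lists were not. The arrays numbered 3 of both genotypes stood apart in the 3' minus 5' difference of the Gapdh controls, at 2.03 and 2.20 against 0.87 to 1.07 on the other 4 arrays. The same difference of the Actb controls was 1.18 and 1.14 against 0.94 to 1.08, and that of the Tfrc controls did not set these arrays apart.

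No member differed between genotypes past the threshold, which was a limma adjusted p under 0.05 over all probe sets, although Tfrc read lower at every probe set. In simulated data this threshold recovered 0% of added changes of 0.5 log2 units and 2.2% of changes of 1. A missed threshold is therefore not evidence that a gene was unchanged. Of the 22 member probe sets tested, 0 passed, 3 had an unadjusted p under 0.05 in limma and 5 did so with the replicate number as a block. The 3 were all of Tfrc, a single gene, and the block added 1440882_at of Lrp8 and 1420428_at of Ager. Over all 45037 probe sets, the share past an adjusted p of 0.05 was 0.0111% (5 probe sets), that with an unadjusted p under 0.05 was 4.46%, and with the block these shares were 0.0% and 8.7%. The 3 and 3 arrays did not overlap at 8 of the 22, with the null arrays lower at 5 and higher at 3. Over all probe sets the null arrays lay wholly below the wild-type arrays at 5.18% and wholly above at 4.08%. The 5 lower were the 3 tested probe sets of Tfrc, 1 of Lrp8 and the only 1 of Fcgrt, and the 3 higher were all of Scarb1. Read by the brightest probe set of each gene, 5 members differed below 0 and 4 above 0, with a median of -0.33 against 0.0077 over all genes. The preparations are bulk samples, so fewer cells of a type and less RNA per cell cannot be told apart for any of these values.

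**Figure D1:**
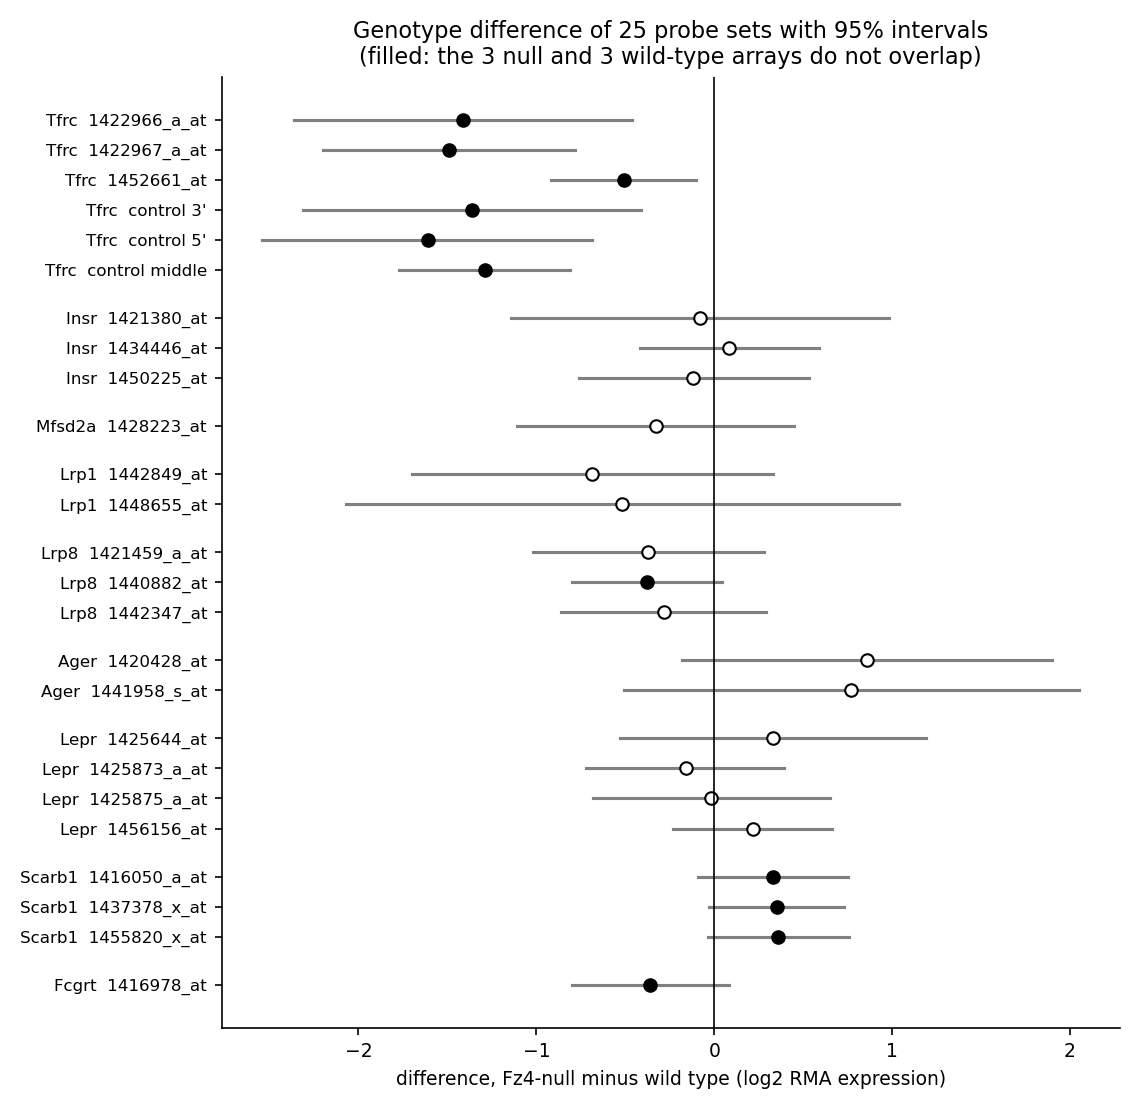
Genotype difference (Fz4-null minus wild type, log2 RMA expression) of all 25 probe sets of the 9 genes, as points with 95% intervals from limma; filled points mark probe sets whose 3 null and 3 wild-type arrays do not overlap. All 6 Tfrc points lie below 0, from -1.61 to -0.51, the 3 Scarb1 points lie between 0.33 and 0.36, and outside Tfrc every interval crosses 0.

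Tfrc, the transferrin receptor, gave the lowest p-values among the members and was lower on every null array at all 6 of its probe sets. At its brightest probe set (1452661_at) it read 12.49, 12.17 and 12.32 on null replicates 1 to 3 and 12.84, 12.89 and 12.78 on wild-type replicates 1 to 3. The null arrays all lay below the wild-type arrays, by a mean of -0.51 (SE 0.17, n = 3, 95% interval -0.92 to -0.10, limma adjusted p = 1.0). This probe set lay at the 99.4th percentile of mean level. At 1422967_a_at the null arrays read 8.82, 8.23 and 8.0 and the wild-type arrays 10.10, 10.03 and 9.39. The gap between the groups was wider there, -1.49 (SE 0.30, 95% interval -2.20 to -0.78), which is 35.7% of the wild-type level (limma adjusted p = 0.571). With the replicate number as a block, the SE of this difference was 0.17 (limma adjusted p = 0.364). At 1422966_a_at the null arrays read 10.46, 9.64 and 8.96 against 11.36, 11.26 and 10.68, a difference of -1.41 (SE 0.40, limma adjusted p = 0.913). Under every array left out in turn, these 3 probe sets kept their sign, at -0.59 to -0.43, -1.72 to -1.31 and -1.80 to -1.05.

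The 3 Tfrc control probe sets read the 5' end, the middle and the 3' end of the transcript, and each was lower in the null arrays. They were kept out of the main test with the other control rows, and their differences come from a fit with those rows, chosen after seeing the data. The 5' control read 7.18, 6.27 and 5.92 on the null arrays and 8.51, 8.14 and 7.57 on the wild-type arrays, a difference of -1.61 (SE 0.39, limma adjusted p = 0.793). The middle control read 8.55, 8.28 and 8.26 against 9.93, 9.59 and 9.44. Its 3 null arrays were the tightest of the 3 controls, and its difference was -1.29 (SE 0.20, 95% interval -1.77 to -0.81, limma adjusted p = 0.406). The 3' control read 10.82, 10.15 and 9.35 against 11.70, 11.69 and 11.01, a difference of -1.36 (SE 0.40, limma adjusted p = 0.951). The controls and both dimmer probe sets thus read 32.7% to 40.8% of the wild-type level, and the brightest read 70.3%. With the mean of its 3 tested probe sets standing for the gene, the difference was -1.14 in place of -0.51. The level of 1452661_at above 1422967_a_at was 3.67, 3.93 and 4.32 on the null arrays and 2.74, 2.85 and 3.39 on the wild-type arrays. These groups did not overlap (exact permutation p = 0.10, two-sided, the smallest that 3 against 3 can give), in a comparison chosen after the values were seen.

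**Figure D2:**
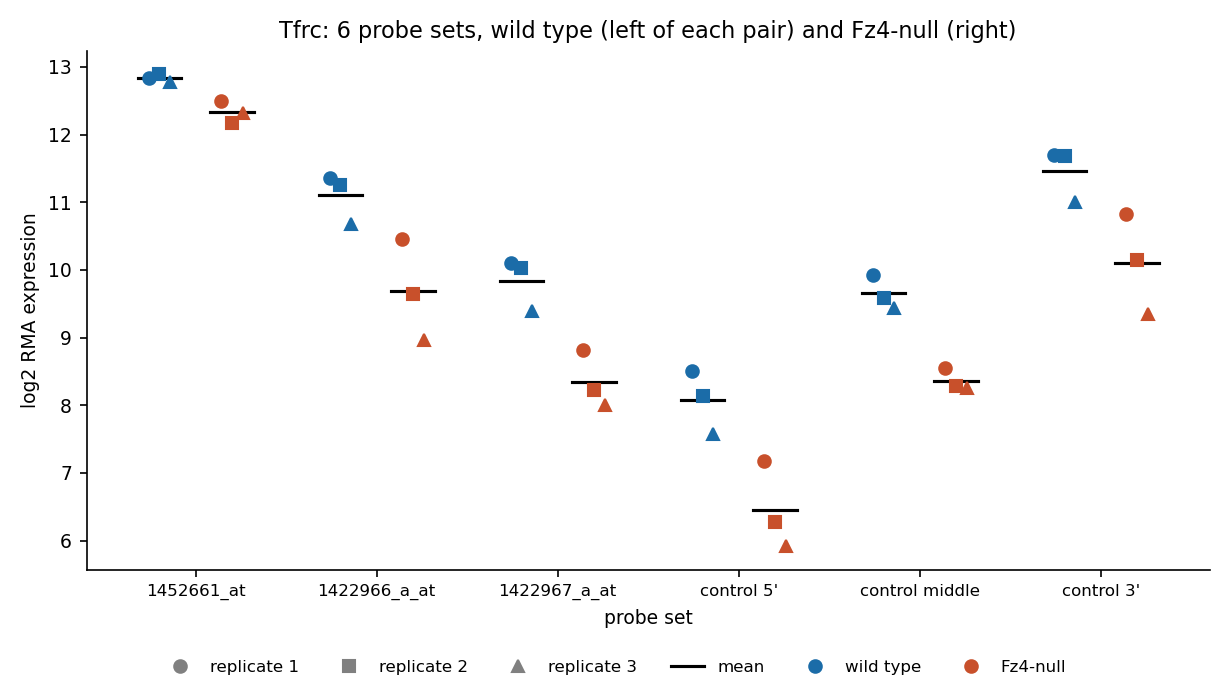
Log2 RMA expression of Tfrc at its 3 standard and 3 control probe sets on each array; wild type is drawn left (blue) and Fz4-null right (orange) of each pair, marker shapes give the replicate number and bars the mean. The null points lie below the wild-type points at all 6 probe sets, and the replicate 3 arrays are the lowest of their group at 5 of them in both genotypes.

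The Tfrc difference was seen within each replicate number. It was -0.35, -0.72 and -0.46 at 1452661_at for numbers 1 to 3, -1.27, -1.80 and -1.39 at 1422967_a_at, and -1.38, -1.32 and -1.18 at the middle control. The 3' minus 5' difference of Tfrc itself was 3.64, 3.88 and 3.43 on the null arrays and 3.19, 3.55 and 3.44 on the wild-type arrays, and the groups overlapped. Against the mean of the endothelial markers on the same array, Tfrc at 1452661_at stood at 0.75, 0.52 and 0.71 in the null and 1.41, 1.43 and 1.25 in the wild type, a difference of -0.70 (exact permutation p = 0.10, two-sided). The null arrays already lay wholly below the wild-type arrays for Tfrc and wholly above for the markers. This p was therefore fixed beforehand and adds no evidence. Choroid plexus markers were also lower on the null arrays. Among the wild-type arrays they were highest on replicate 3 (8.55 against 6.40 and 6.30), where Tfrc was the lowest of the wild type at all 6 probe sets. Their part in the Tfrc difference was not tested. Red cell precursors use Tfrc heavily, and the red cell list (5 of 8 markers measured, 2 of them below the lower quartile on every array) averaged 4.75, 4.26 and 4.73 on the null arrays and 4.92, 4.71 and 5.05 on the wild-type arrays. The part of red cells was not tested either.

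The other genes of iron handling showed no shared direction. Of 10 measured genes of 12 listed, 0 passed the limma threshold, 5 were above 0 and 5 below, and the median difference was 0.01. Slc40a1, the iron exporter ferroportin, was the only one whose groups did not overlap. It read 11.29, 11.14 and 11.45 on the null arrays and 11.51, 11.51 and 11.93 on the wild-type arrays (difference -0.36, SE 0.20, limma adjusted p = 1.0). The ferroxidase Heph (0.59) and the Tfrc partner Hfe (0.52) read higher in the null arrays, with overlapping groups. Tfr2, the second transferrin receptor, read 4.17 in the null and 4.24 in the wild type on average. The iron-sensing RNA-binding proteins, which control Tfrc mRNA stability, read 0.20 (Aco1) and 0.043 (Ireb2).

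Promoter windows of the members were read for short motifs, since Frizzled4 acts on transcription through Tcf/Lef factors. RefSeq windows (GRCm38.p6) of 300 bases, 250 before and 50 after a start site, were on hand for 7 of the 9 genes, 11 windows in all. The Tcf/Lef letters CTTTGAA with their variants CTTTGAT plus CTTTGTA or else CTTTGTT, on either strand, occurred in 0 of the 11 windows and in 16.9% of the 32851 windows of all genes. The letters ACGTG, the core read by hypoxia-inducible and some basic helix-loop-helix factors, were searched after the values were seen. They occurred on either strand in 3 of the 11 (both Tfrc windows, which overlap, and that of Mfsd2a) and in 19.6% of all windows. The windows of Tfrc, the member with the lowest p-values, and of Mfsd2a, the transcytosis suppressor, are shown from 250 bases before the start, 5′ to 3′, with ACGTG in capitals. The Tfrc stretch is chr16:32608646-32608898 on the + strand, from the more upstream of its overlapping windows. Its ACGTG begins 2 bases before the start site of that window, and the other Tfrc start site lies downstream. The Mfsd2a stretch is chr4:122961189-122961438 on the - strand, and its 2 copies begin 107 and 9 bases before the start.
Tfrc: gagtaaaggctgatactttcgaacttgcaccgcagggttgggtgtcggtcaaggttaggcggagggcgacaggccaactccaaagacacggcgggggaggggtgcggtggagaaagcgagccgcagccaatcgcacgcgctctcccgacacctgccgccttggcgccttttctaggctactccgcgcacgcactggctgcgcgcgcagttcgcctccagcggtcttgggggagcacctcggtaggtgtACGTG
Mfsd2a: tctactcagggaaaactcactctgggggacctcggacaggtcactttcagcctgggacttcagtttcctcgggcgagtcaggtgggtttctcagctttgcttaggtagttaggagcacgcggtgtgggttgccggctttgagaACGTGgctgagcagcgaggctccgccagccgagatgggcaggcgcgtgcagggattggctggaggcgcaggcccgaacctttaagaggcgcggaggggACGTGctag

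Mfsd2a, the lysophosphatidylcholine carrier, was bright in both genotypes and did not differ past the threshold. Its only probe set read 11.88, 11.36 and 12.32 on the null arrays and 11.97, 11.89 and 12.70 on the wild-type arrays. The groups overlapped, and the arrays numbered 3 were the highest of each genotype. The difference was -0.33 (SE 0.33, 95% interval -1.11 to 0.45, limma adjusted p = 1.0), an interval that runs from 0.462 to 1.37 times the wild-type level. Within replicate numbers it was -0.088, -0.53 and -0.37, so each null array read below the wild-type array of the same number. With the replicate number as a block, the SE of the difference was 0.16 (limma adjusted p = 0.625). The difference shrank to -0.077 when wild-type replicate 3 was left out and to -0.084 when null replicate 2 was, and it was -0.57 when null replicate 3 was. Against the mean of the endothelial markers, Mfsd2a stood at 0.14, -0.29 and 0.71 in the null and 0.54, 0.43 and 1.16 in the wild type. These groups overlapped (difference -0.53, exact permutation p = 0.3, two-sided). Of 14 other genes of lipid uptake and handling, 0 passed, 8 lay above 0 and 6 below, with a median of 0.031. Acsl3, an acyl-CoA synthetase, read lower on all null arrays (8.99 to 9.11 against 9.40 to 9.42, difference -0.34, limma adjusted p = 1.0). The sphingosine-phosphate exporter Spns2 read 0.58 and Mfsd2b, a relative of Mfsd2a that also exports sphingosine-phosphate, read 0.27, both with overlapping groups.

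**Figure D3:**
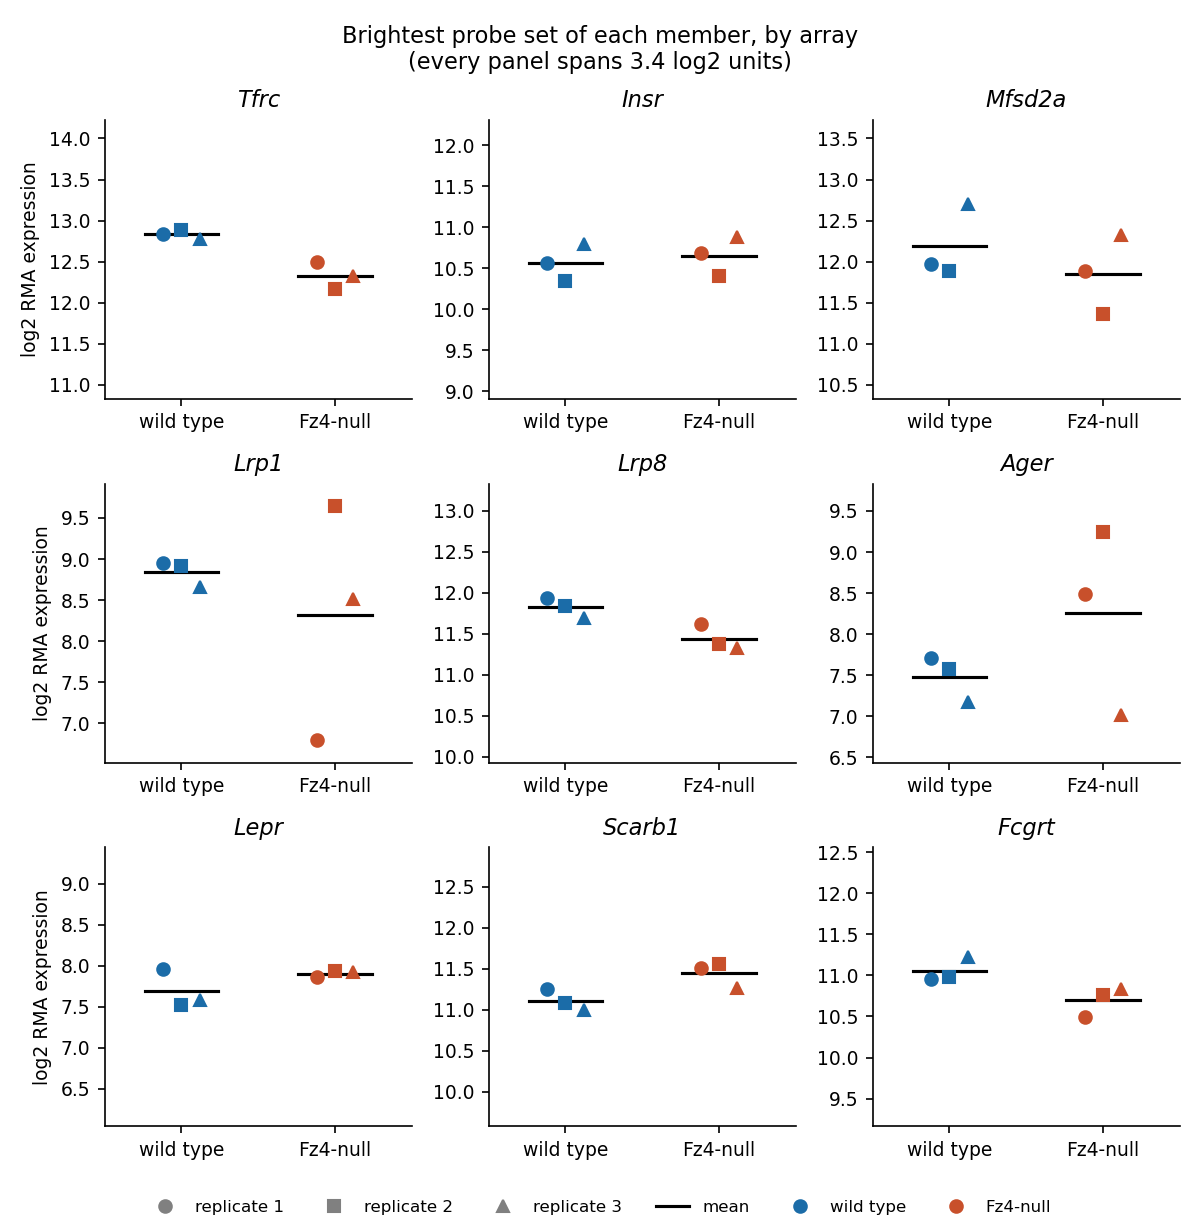
Log2 RMA expression of the brightest probe set of each of the 9 genes on the 3 wild-type (blue) and 3 Fz4-null (orange) arrays; marker shapes give the replicate number, bars the mean, and every panel spans the same number of log2 units. The groups are apart for Tfrc, Lrp8 and Fcgrt (null lower) and Scarb1 (null higher) and overlap for the other 5, with the widest null spread in Lrp1 and Ager.

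The hormone receptors Insr and Lepr differed by less than the spread between arrays. Insr, the insulin receptor, read 10.68, 10.40 and 10.88 on the null arrays and 10.56, 10.34 and 10.80 on the wild-type arrays at its brightest probe set. The groups interleaved, with a difference of 0.084 (SE 0.21, 95% interval -0.42 to 0.59, limma adjusted p = 1.0). Its other probe sets gave -0.079 (1421380_at) and -0.12 (1450225_at, dim, below the lower quartile on 4 arrays), and the mean of all 3 gave -0.038. The sign of the brightest also turned when null replicate 3 (-0.028) or wild-type replicate 2 (-0.029) was left out. Leaving out 1 array makes the replicate numbers unequal between the genotypes. Within replicate numbers 1 to 3 the brightest differed by 0.12, 0.057 and 0.072, all above 0. At 1421380_at the replicate 3 arrays were low in both genotypes, 6.27 in the null and 6.09 in the wild type against 7.18 to 7.47 on the other 4 arrays.

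Lepr, the leptin receptor, read 7.86, 7.93 and 7.92 on the null arrays and 7.96, 7.52 and 7.58 on the wild-type arrays at its brightest probe set. The null arrays were nearly equal and lay below wild-type replicate 1, and the difference was 0.22 (SE 0.19, 95% interval -0.23 to 0.66, limma adjusted p = 1.0). At 1425644_at it was 0.33 (SE 0.36), and the remaining pair of probe sets, which are dimmer, gave -0.16 and -0.019. Leaving out 1 array moved the brightest from 0.13 (wild-type replicate 2) to 0.35 (wild-type replicate 1), and 1425644_at from 0.048 (wild-type replicate 3) to 0.67 (wild-type replicate 1). Of 11 listed genes of insulin, IGF and leptin signalling, 0 passed, with 6 above 0, 5 below and a median of 0.031. The scavenging IGF receptor Igf2r read 9.52, 9.38 and 9.42 on the null and 9.11, 8.89 and 9.13 on the wild-type arrays (difference 0.40, SE 0.17, limma adjusted p = 1.0). Leprotl1, a relative of the leptin receptor overlapping transcript, read 0.42 higher, also without overlap. Irs1, an insulin receptor substrate, read lower without overlap, at 7.32, 8.48 and 8.25 against 8.60, 8.71 and 8.56 (difference -0.61, SE 0.31). The null arrays thus lay wholly above for 2 of the 11 genes and wholly below for 1, where the shares over all genes were 4.59% and 4.95%. Igf1r, the IGF-1 receptor, read -0.50 (SE 0.25) with overlapping groups, and its 5 probe sets shared that sign.

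The lipoprotein receptors Lrp1 and Lrp8 both read lower on average, and only Lrp8 did so on every null array. Lrp8, the reelin and apolipoprotein receptor, read 11.62, 11.37 and 11.33 on the null arrays and 11.93, 11.84 and 11.69 on the wild-type arrays at 1440882_at. The highest null array lay just below the lowest wild-type array, and the difference was -0.38 (SE 0.18, 95% interval -0.80 to 0.044, limma adjusted p = 1.0). Its other probe sets read -0.28 (1442347_at) and -0.37 (1421459_a_at), with overlapping groups. When null replicate 2 was left out these were -0.12 and -0.16, when wild-type replicate 3 was they were -0.12 and -0.25, and when null replicate 3 was they were -0.41 and -0.61. Within replicate numbers all 9 Lrp8 differences were below 0, from -0.78 to -0.032. Against the mean of the endothelial markers, Lrp8 stood at -0.12, -0.28 and -0.29 in the null and 0.50, 0.38 and 0.15 in the wild type (exact permutation p = 0.10, two-sided). The null arrays already lay wholly below for Lrp8 at 1440882_at and wholly above for the markers, so this p was fixed beforehand.

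Lrp1, a large endocytic receptor that is also abundant in mural cells, astrocytes, fibroblasts and macrophages, was the most uneven member. It read 6.80, 9.64 and 8.51 on null replicates 1 to 3 and 8.95, 8.91 and 8.66 on the wild-type arrays. Null replicate 1 was the lowest of all 6 and null replicate 2 the highest, so the difference of -0.52 (SE 0.65, limma adjusted p = 1.0) had an interval from -2.07 to 1.04. It turned to 0.24 when null replicate 1 was left out and was -1.18 when null replicate 2 was. The marker lists of 4 other cell types that are given here were low on the same array, and in these 4 no measured member lay below the lower quartile on every array. Leukocyte and platelet, granule neuron, choroid plexus and oligodendrocyte markers were lowest on that array too, so low lists there were not limited to these cell types. The 10 fibroblast markers averaged 7.06 on null replicate 1 and 9.05 to 10.16 on the other 5 arrays. Microglia and macrophage markers averaged 5.39 against 7.65 to 8.13, astrocyte and Bergmann glia markers 6.29 against 7.79 to 8.67, and pericyte and smooth muscle markers 9.52 against 10.73 to 11.04. Endothelial markers averaged 11.74 on that array, the highest of the 6. The part of these cells in the Lrp1 level was not tested. Its other, dimmer probe set read -0.69 (SE 0.43), with wild-type replicate 3 highest at 6.39, and -0.27 without that array.

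**Figure D4:**
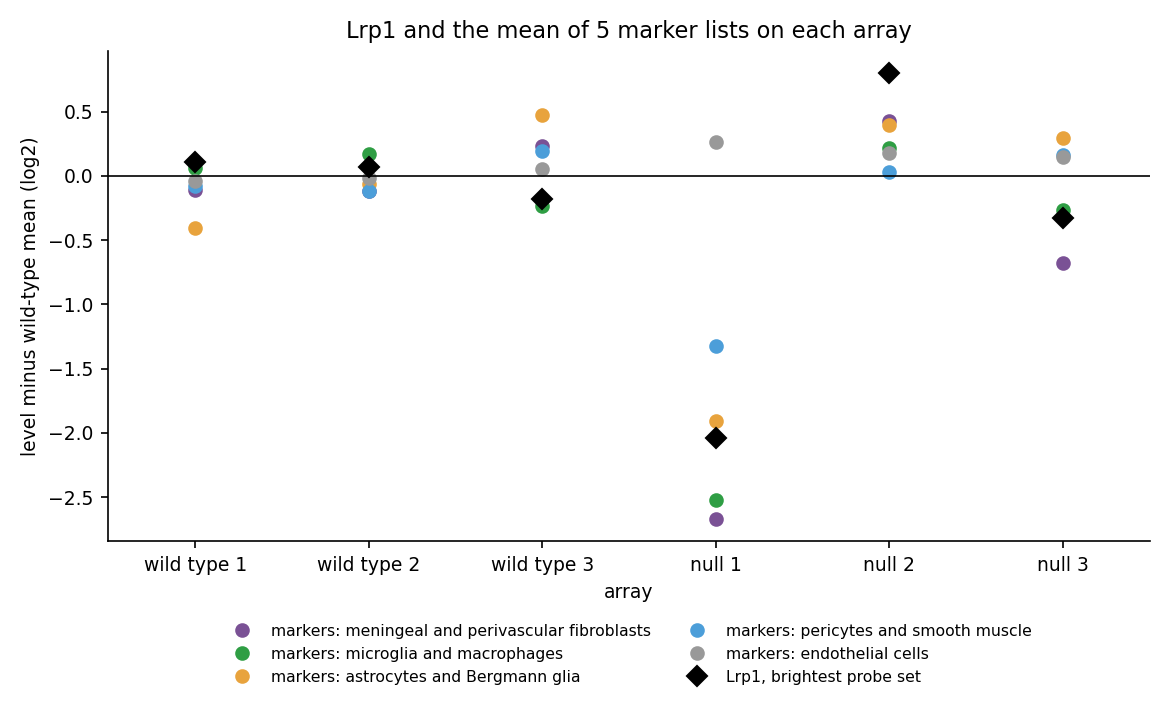
Level of Lrp1 (black diamonds, brightest probe set) and the mean of 5 marker lists (coloured points) on each array, as the difference from the wild-type mean in log2 units. On null 1 Lrp1 and the 4 non-endothelial lists are all low (lists at 5.39 to 9.52 before centring), while the endothelial list is at its highest, 11.74.

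Of 12 measured genes among 14 listed for the LDL receptor family and its regulators, 0 passed in limma, with 8 above 0, 4 below and a median of 0.15. The null arrays lay wholly above for 3 of them and wholly below for 2, where the shares over all genes were 4.59% and 4.95%. Lrp2 (megalin) read 2.97, 3.35 and 3.32 on the null arrays and 4.55, 3.88 and 4.09 on the wild-type arrays, a difference of -0.96 (SE 0.24, limma adjusted p = 0.818), at its brightest probe set. Its other probe sets read -0.19 and -0.11 with overlapping groups. Its null levels lie under the arrays' lower quartiles, and megalin is also a choroid plexus gene, whose list was lower on the same arrays. That list's part was not tested. Mylip, the ubiquitin ligase that marks lipoprotein receptors for degradation, read 8.79, 9.46 and 9.11 in the null and 8.52, 8.69 and 8.42 in the wild type (difference 0.57, SE 0.22, limma adjusted p = 1.0). The Wnt co-receptors in this family pointed opposite ways, Lrp5 at 0.36 (SE 0.17) and Lrp6 at -0.28 (SE 0.17), both without overlap.

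Scarb1 and Ager, receptors for HDL and for glycated and other ligands, read higher in the null arrays. Scarb1 did so at all 3 of its probe sets without overlap. At 1416050_a_at it read 11.51, 11.56 and 11.27 on the null arrays and 11.25, 11.09 and 11.00 on the wild-type arrays. The lowest null array was just above the highest wild-type array, with a difference of 0.33 (SE 0.18, 95% interval -0.093 to 0.75, limma adjusted p = 1.0). At 1455820_x_at the null arrays read 11.40, 11.48 and 11.24 and the wild-type arrays 11.07, 10.94 and 11.03 (difference 0.36, SE 0.17). At 1437378_x_at they read 11.13, 11.25 and 11.12 against 10.83, 10.76 and 10.86 (difference 0.35, SE 0.16, limma adjusted p = 1.0). The endothelial markers read 0.20 higher on the same arrays on average. Against their mean, Scarb1 at 1416050_a_at stood at -0.24, -0.09 and -0.35 in the null and -0.18, -0.37 and -0.54 in the wild type, and these groups overlapped (difference 0.13, exact permutation p = 0.40, two-sided).

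Ager, the receptor for advanced glycation end products, varied more among the null arrays than among the wild-type arrays. At its brightest probe set (1441958_s_at) it read 8.49, 9.25 and 7.02 on the null arrays and 7.71, 7.57 and 7.17 on the wild-type arrays. Null replicates 1 and 2 were above every wild-type array and null replicate 3 was below them all. The difference was 0.77 (SE 0.54, 95% interval -0.51 to 2.05, limma adjusted p = 1.0), and it was 0.27 when null replicate 2 was left out and 1.38 when null replicate 3 was. At 1420428_at the null arrays read 7.82, 8.37 and 6.69 and the wild-type arrays 6.84, 7.07 and 6.39. There each null array lay above the wild-type array of the same number, by 0.98, 1.30 and 0.30, and the difference was 0.86 (SE 0.44, limma adjusted p = 1.0 and 0.523 with the block). It was 0.49 when null replicate 2 was left out and 1.33 when null replicate 3 was. Arrays numbered 3 were the lowest of their genotype at both probe sets. Among 10 measured RAGE ligands and scavenger receptors, 0 passed and the median was -0.069. The fatty acid translocase Cd36 read 6.18, 7.67 and 7.51 on the null and 6.35, 6.21 and 4.71 on the wild-type arrays, a difference of 1.37 (SE 0.56, limma adjusted p = 1.0) with overlapping groups.

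Fcgrt, the neonatal Fc receptor that recycles IgG and albumin, was slightly lower on every null array. It read 10.49, 10.76 and 10.84 on the null arrays and 10.96, 10.98 and 11.23 on the wild-type arrays. The groups were adjacent, and the difference was -0.36 (SE 0.19, 95% interval -0.80 to 0.085, limma adjusted p = 1.0). Within replicate numbers it was -0.47, -0.22 and -0.39, and against the endothelial markers it was -0.55 (exact permutation p = 0.10, two-sided). The null arrays already lay wholly below for Fcgrt and wholly above for the markers, so this p was fixed beforehand. The lowest value was on null replicate 1, where microglia and macrophage markers were also lowest, and without that array the difference was -0.26. Without wild-type replicate 3, the highest array, it was -0.27. The part of microglia and macrophages in the Fcgrt level was not tested. B2m, the light chain that Fcgrt needs, read 12.82 in the null and 12.76 in the wild type on average (difference 0.061, SE 0.17). The Fc-gamma receptors Fcgr2b (-1.16) and Fcgr3 (-0.85) were lowest on null replicate 1, at 4.72 and 5.40, and without that array they read -0.43 and 0.17. Of the 5 genes listed with Fcgrt, 0 passed in limma.

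The vesicle machinery around these receptors showed no call either. Over the 9 pathway lists, 0 of 108 measured genes passed in limma, against 0.022% of all genes, and 6 had an unadjusted p under 0.05, which is 5.56% against 4.6% of all 18193 genes. The null arrays lay wholly above the wild-type arrays for 7 of the 108 and wholly below for 6, beside the same shares of 4.59% and 4.95% over all genes. In the clathrin list (16 of 18 measured) the median was -0.0027, the heavy chain Cltc differed by 0.0077 (SE 0.15), and the cargo adaptor Epn1 read 0.40 (SE 0.17). By their brightest probe set, all 6 measured caveola coat genes lay above 0, with a median of 0.064, Cav1 at 0.073 (SE 0.17) and Cavin3 at 0.60 (SE 0.28). Their groups all overlapped, and other probe sets of Cav2, Cavin1 and Ehd2 did not all share the sign. The endothelial markers read 0.20 higher on the same arrays on average, with 9 of 12 above 0.

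The widest gaps in the endosome list (24 genes, median 0.077) belonged to a pair of Rab11 effectors, which steer cargo through recycling endosomes. Rab11fip1 read 8.35, 8.91 and 7.75 on the null arrays and 10.75, 10.97 and 9.19 on the wild-type arrays. The groups did not overlap, and the difference was -1.97 (SE 0.52, limma adjusted p = 0.885). Its other probe set also read lower without overlap, at 5.49, 5.99 and 5.64 against 6.68, 6.60 and 6.12. Rab11fip5 read higher, at 10.49, 9.93 and 11.01 on the null and 9.19, 9.51 and 10.03 on the wild-type arrays (difference 0.90, SE 0.34, limma adjusted p = 1.0). Its other probe set read 8.47, 7.92 and 8.63 against 7.33, 7.23 and 7.73, without overlap. Rab11a itself read 0.19 higher (SE 0.17) without overlap at its brighter probe set, and its other probe set had the opposite sign.

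**Figure D5:**
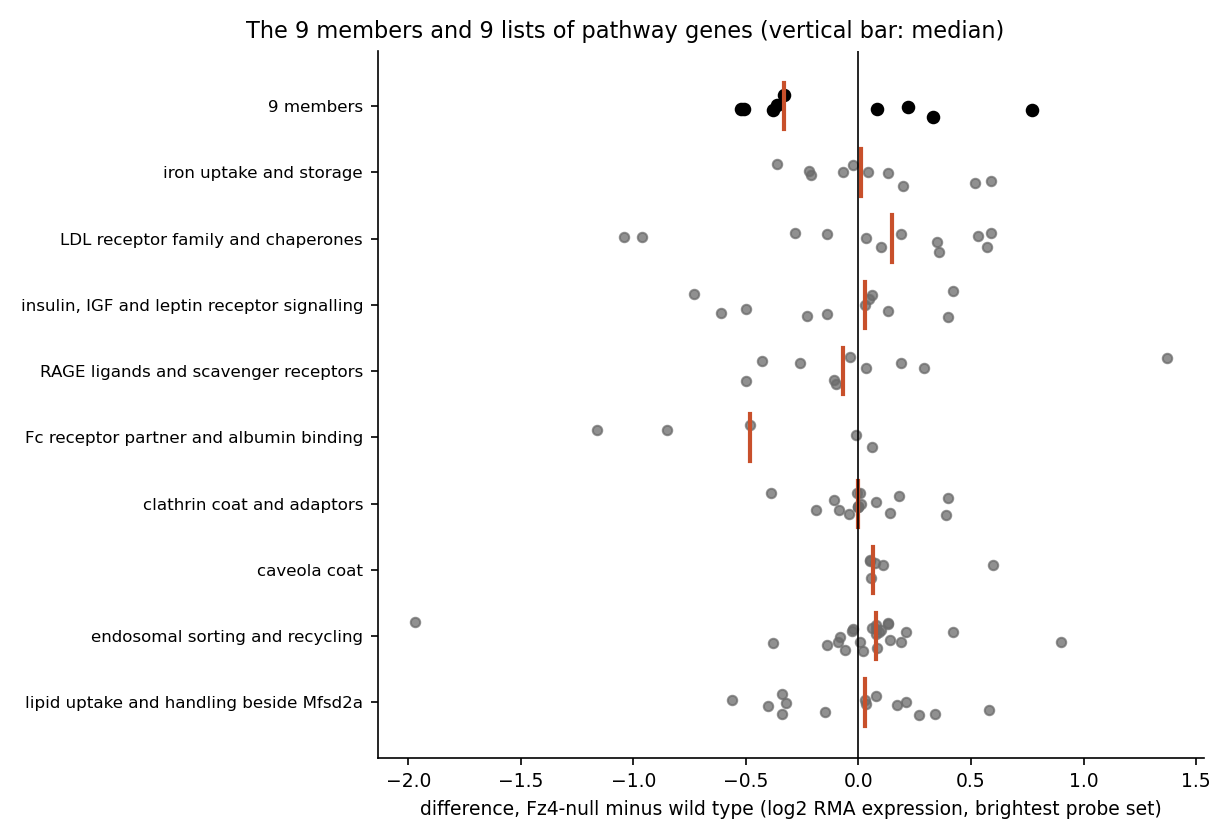
Genotype difference (Fz4-null minus wild type, log2 RMA expression) of the brightest probe set of each gene, for the 9 members (black) and 9 lists of pathway genes (grey), with the median of each as a vertical bar. List medians lie between -0.48 and 0.15, the lowest point is Rab11fip1 at -1.97 and the highest is Cd36 at 1.37.

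The genes whose profile over the 6 arrays was nearest to each of Tfrc and Mfsd2a were found among 10925 genes with a mean above the median probe set. The measure was the root mean square difference of levels centred on each gene's own mean. Nearest to Tfrc at 1452661_at were Sh3kbp1 (0.061), an endocytic adaptor, Dennd11 (0.078) and Tiam1 (0.086), a Rac exchange factor. Sh3kbp1 read 10.21, 9.80 and 10.05 on the null arrays and 10.55, 10.48 and 10.36 on the wild-type arrays. Nearest to Mfsd2a were Gtf3c5 (0.064), Heatr1 (0.077) and Nomo1 (0.082). Gtf3c5 read 6.97, 6.53 and 7.46 on the null and 6.93, 6.99 and 7.79 on the wild-type arrays, highest on the arrays numbered 3 of each genotype, as Mfsd2a was. With 6 arrays and so many genes, close profiles arise readily, and these are a description.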

How the data were processed

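Total RNA of 6 preparations was extracted with Trizol and RNeasy and biotin-labelled for 1 array each, according to the labels. Deposited were the authors' log2 expression values from RMA, per the submitters' processing notes. RMA subtracts background, gives all arrays 1 distribution and condenses the probes of a set into 1 value, which compresses differences near background. No version is stated in those notes. Arrays have no read depth, and their number limits the precision. No pair of arrays shared over 0.35% of identical values.

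The table held 45101 rows, of which 64 controls were left out. Names came from the platform annotation, where 34945 tested probe sets have 1 symbol, 932 several and 9160 none. A gene was read from its brightest probe set with 1 symbol. limma 3.58.1 in R 4.3.3 (lmFit, eBayes) compared the genotypes over all 6 arrays, two-sided, with Benjamini-Hochberg adjustment over 45037 probe sets. Values are means with n = 3 and moderated SEs. All limma SEs, intervals and p-values are from the fit without the replicate block unless the block is named. The fit was tested on simulated data with known changes added. At the threshold it recovered 0% of changes of 0.5 log2 units, 2.2% of 1, 73% of 2 and 98.6% of 4. Exact permutation tests used scipy 1.17.1. The members and gene lists were chosen with earlier results of these data known; named genes are all members, up to 3 genes per list with the lowest p, and genes nearest to Tfrc and Mfsd2a, while any further genes were picked with their values in view.

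Replicates carry the numbers 1 to 3 in each genotype, and what a number stands for is unstated. Arrays of like number deviated together from their group means, with correlations of 0.244, 0.303 and 0.574 that each exceed the 0.1 required to treat them as pairs. Null replicate 2 and wild-type replicate 1 reached 0.262. Alternatives were 3 normalizations, 2 filters on dim probe sets, a robust variance trend, the block, each array left out, and other choices of probe set.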

Additional observations from a re-analysis of the deposited data

How the results depend on the processing

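Across 141 alternative values of the 9 gene differences, 137 kept their direction and stayed on the same side of the threshold, and 4 reversed. Those were Insr without null replicate 3 (-0.028), without wild-type replicate 2 (-0.029) and as the mean of its probe sets (-0.038), and Lrp1 without null replicate 1 (0.24). The other 7 genes were never reversed, and 0 member probe sets passed an adjusted p of 0.05 in limma under any alternative run. The filters on dim probe sets, the variance trend, the block and the fit with control rows cannot change a difference, only its SE and p. Directions kept under them therefore say nothing about stability. Leaving out 1 array gave differences of -0.029 to 0.21 for Insr and -1.18 to 0.24 for Lrp1. Over all probe sets the number past the threshold was 5, and it was 0 to 2 with 1 array left out (1329 to 3510 at an unadjusted limma p under 0.05). With the replicate block, which leaves 2 residual degrees of freedom against 4, it was 0 (3917 at an unadjusted p under 0.05), and the block changed no other call. Normalization, the filters on dim probe sets and the variance trend gave 4 to 7. Dim probe sets of Insr, Lepr and Lrp2 lie near the lower quartile, where RMA can understate a change.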
